A study of Gallus gallus with 48 samples.

Results

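RASL10A and RASD1 are small GTPases of the Ras family, and their transcripts were followed in chicken embryo pituitary cells in culture after a glucocorticoid, with and without a block on protein synthesis. The genes were chosen by their measured differences between CORT and 0 h groups on these same arrays, as steroid-responsive members of the family. Their responses to steroid and their differences with the block are therefore given as descriptions without a p-value, and an interval beside one of their values shows its precision and is no test. Among 19200 probes on the array, 3 carry these symbols, 1 for RASL10A and 2 for RASD1. The RASL10A probe had a value on 48 of 48 arrays and the first RASD1 probe on 47. The second RASD1 probe had a value on 2 arrays, both exactly 0, and was left out. Both genes passed the filter on missing values, which makes them 2 of 5634 named genes and 2 of 11197 features tested.

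RASD1 is known as the dexamethasone-induced Ras-related protein because its transcript was first found as a glucocorticoid-induced RNA in mouse AtT-20 corticotroph cells. In mammalian cells it acts on heterotrimeric G proteins of the Gi class without a receptor, and in rat neurons it binds the adaptor NOS1AP, which ties it to neuronal nitric oxide synthase. RASL10A, also called RRP22, is less studied: in human cells its protein has been placed in the nucleus, and adding it slowed growth. Glucocorticoids act through a receptor that binds DNA, so some target genes respond without new protein while others need a protein made first. Cycloheximide, which stops the ribosome, is the classical way to separate these, and it can also lengthen the life of short-lived RNAs.

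Cells came from the anterior pituitary of chicken embryos at embryonic day 11 and were plated in serum-free medium with insulin and transferrin. The glucocorticoid of birds, corticosterone (CORT), was added at 1e-09 M for 1.5, 3, 6, 12 or 24 h, either after 1.5 h in cycloheximide (CHX) at 10 micrograms per ml or with no CHX, and the 2 groups without CORT were CHX alone and untreated. Each of the 12 groups had 4 samples, which the labels call biological replicates without naming separate dispersions, so a p-value reflects how much these samples vary and no more. The labels do not say whether CHX was taken away before CORT. CORT duration and time in culture ran together and cannot be told apart, and the CHX groups had 1.5 h of pretreatment that the others lacked.

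Values are log2 ratios of a sample (Cy3) to a pool of all 48 samples (Cy5), as the authors deposited them, so they order groups within a gene and say nothing on its absolute level or on whether the cells hold pituitary markers. The sign of the ratio is likely sample over pool, because FKBP5, which binds the HSP90 complex of steroid receptors and is a classical target, was higher after CORT in 10 of 10 comparisons. If the sign ran the other way, each direction below would turn. Between 14609 and 16840 probes were measured per array. Pairs of arrays correlated between -0.76 and 0.87 over all probes, and pairs within 1 group between -0.69 and 0.79, although the labels give 1 dye orientation. One principal component of the deviations within groups carried 51.7% of their variance. Its mean score was -0.19 for replicate number 1, and 0.053, 0.003 and 0.134 for numbers 2, 3 and 4. The deviations of RASL10A from its group means correlated with this component at r = 0.42 and those of RASD1 at r = 0.17, over 48 arrays. In bulk RNA, fewer cells of a type and less RNA per cell cannot be told apart.

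Without CHX, RASL10A was higher after CORT at each duration, and its mean was highest at 6 h. At 1.5 h of CORT it read 0.14, -0.27, 0.54 and 0.23, against -1.26, -1.39, -0.75 and -0.92 in the untreated samples. At 3 h it read 0.68, 1.12, 0.63 and 0.91. The samples of both durations lay above every untreated sample. At 6 h the values were 0.56, 1.52, 1.87 and 1.32, the first of them well under the other 3. At 12 h they were -0.13, 0.45, 0.42 and 0.78, and at 24 h 0.11, 0.71, 0.74 and 1.24. Replicate 1 was the lowest of 4 at 6, 12 and 24 h, yet it still lay above the untreated samples. Groups failed to overlap with untreated at all 5 durations, which was so for 1.06% to 3.05% of all features in these comparisons. Few features passed limma's test in these comparisons: 0% at 1.5 h, 0.0268% at 3 h, 0.0982% at 6 h and 0.0179% at 12 and at 24 h. The count of 0 features at 1.5 h compares with 677 at an unadjusted p under 0.05.

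The fitted difference of RASL10A from untreated was 1.24 at 1.5 h, 1.92 at 3 h, 2.40 at 6 h, 1.46 at 12 h and 1.78 at 24 h, each with an SE of 0.28. In linear terms these were 2.36-fold, 3.78-fold, 5.28-fold, 2.75-fold and 3.44-fold. The 95% interval at 6 h was 1.83 to 2.98, and that at 1.5 h was 0.67 to 1.81. The interval at 6 h overlapped those at 3, 12 and 24 h. All of them share the untreated group, so their overlap does not compare durations. Group means were 0.84 ± 0.23 at 3 h, 1.32 ± 0.55 at 6 h, 0.38 ± 0.38 at 12 h and 0.70 ± 0.46 at 24 h (SD, n = 4 each). Durations were not tested against each other, and no peak time is named. RASL10A ranked 3, 2, 1, 2 and 1 from the top of 11197 features over the 5 durations. The middle 95% of features lay between -0.28 and 0.27 at 6 h.

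RASD1 was also higher after CORT at each duration, by less than RASL10A, and its difference at 1.5 h was already near the later ones. Its untreated samples read -0.29, -0.56, -0.46 and -0.58, the tightest of its groups without CHX. After 1.5 h of CORT it read 0.26, 0.21, 0.63 and 0.23, and after 3 h 0.18, 0.12, 0.87 and 0.85. The 3 h samples fell into a low pair and a high pair. At 6 h the values were 0.50, 0.36, 0.64 and 0.31. At 12 h they were 0.21, -0.12, 0.23 and 0.64, and at 24 h -0.01, -0.10, 0.60 and 0.30. The lowest CORT sample, at -0.12, was still above the highest untreated one, so the groups did not overlap at any duration, as for the 1.06% to 3.05% of all features given above.

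The fitted difference of RASD1 from untreated was 0.80 at 1.5 h, 0.98 at 3 h, 0.92 at 6 h, 0.71 at 12 h and 0.67 at 24 h (SE 0.24 each). These were 1.74-fold, 1.97-fold, 1.90-fold, 1.64-fold and 1.59-fold, with 95% intervals of 0.32 to 1.28 at 1.5 h and 0.19 to 1.15 at 24 h. The 5 intervals overlapped each other widely, but they share the untreated group and do not compare durations. Durations were not tested against each other, and no peak time is named for RASD1. It ranked between 8 and 19 from the top of 11197 features at the 5 durations.

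**Figure D1:**
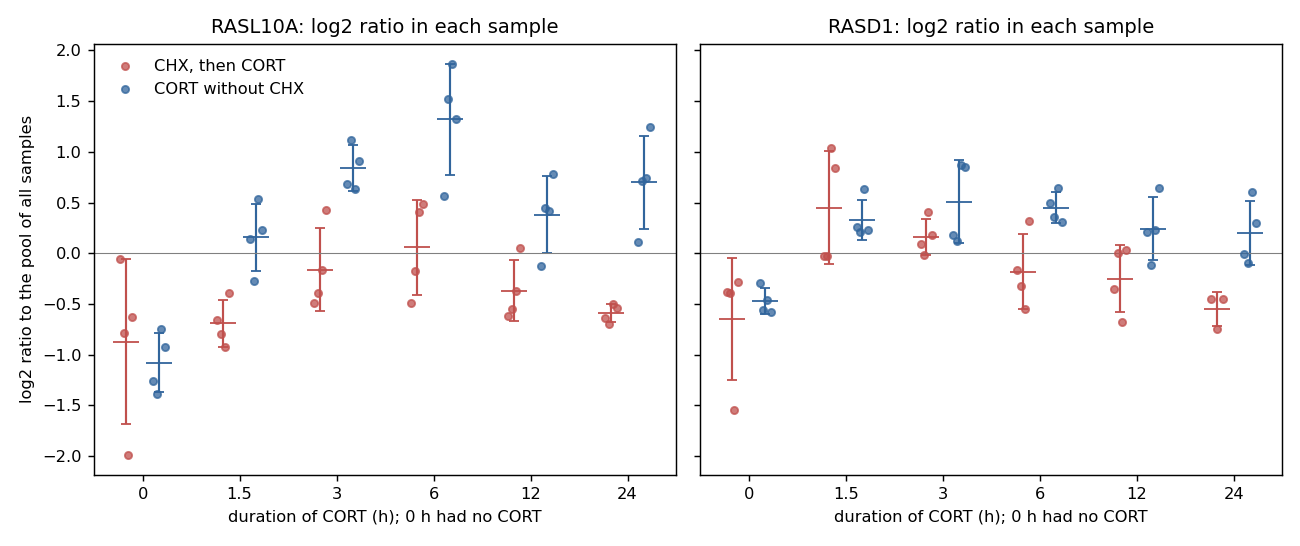
Log2 ratio of RASL10A (left) and RASD1 (right) to the pool of all samples, by hours of CORT, with CHX then CORT in red and CORT without CHX in blue. Points are samples, horizontal lines are group means and error bars are SDs (4 samples a group, 3 for RASD1 at 24 h after CHX). For RASL10A the red group means lie below the blue ones at 1.5 to 24 h, while for RASD1 both colours stand together at 1.5 h and part later.

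After CHX, the RASL10A response was smaller and every CORT group overlapped CHX alone. The CHX samples without CORT read -0.06, -0.79, -1.99 and -0.63, the widest spread of the 12 groups. At 1.5 h of CORT after CHX the values were -0.66, -0.80, -0.92 and -0.39, all within that spread. At 3 h they were -0.49, -0.39, -0.16 and 0.43, and at 6 h -0.49, -0.17, 0.41 and 0.49. Samples above 0 numbered 1 at 3 h and 2 at 6 h. At 12 h the values were -0.62, -0.55, -0.37 and 0.05, and at 24 h they were -0.64, -0.70, -0.50 and -0.54, the tightest group of the 12.

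The fitted difference of RASL10A from CHX alone was 0.17 at 1.5 h (95% interval -0.40 to 0.75), 0.71 at 3 h (0.14 to 1.29), 0.93 at 6 h (0.35 to 1.50), 0.49 at 12 h (-0.08 to 1.07) and 0.27 at 24 h (-0.30 to 0.85). The highest fitted value was at 6 h, as without CHX. Its interval overlapped those at every other duration, but all of them share the CHX alone group and do not compare durations. Group means from 1.5 to 24 h were -0.69 ± 0.23, -0.16 ± 0.41, 0.06 ± 0.47, -0.37 ± 0.30 and -0.59 ± 0.09 (SD, n = 4 each). Durations were not tested against each other, and no peak time is named after CHX. At 6 h the gene was 1.90-fold over CHX alone after CHX and 5.28-fold over untreated without CHX. Limma called 0.0179% of features at 1.5 h after CHX, 0.0268% at 3 h, 1.13% at 6 h, 1.13% at 12 h and 2.3% at 24 h.

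After CHX, RASD1 was higher with CORT than in CHX alone at 1.5 and 3 h. Its CHX samples without CORT read -0.38, -0.39, -1.54 and -0.28, 3 of them close together. At 1.5 h of CORT after CHX it read -0.03, -0.03, 1.04 and 0.84, a low pair and a high pair that all lay above the CHX samples. At 3 h the values were 0.09, -0.02, 0.41 and 0.18, again with no overlap. Of all features, 0.991% did not overlap CHX alone at 1.5 h and 2.82% at 3 h. From 6 h the groups overlapped: -0.16, -0.32, -0.55 and 0.32 at 6 h, and -0.35, 0.00, -0.68 and 0.03 at 12 h. At 24 h the 3 measured samples read -0.45, -0.75 and -0.45, below 3 of the 4 CHX samples.

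The RASD1 difference from CHX alone was 1.10 at 1.5 h (95% interval 0.62 to 1.58, 2.14-fold) and 0.81 at 3 h (0.33 to 1.29, 1.75-fold). It was 0.47 at 6 h (-0.01 to 0.95), 0.40 at 12 h (-0.09 to 0.88) and, with 3 samples, 0.10 at 24 h (-0.42 to 0.62). The first of these placed RASD1 at rank 4 from the top of 11197 features, and the last placed it at rank 4312.

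**Figure D2:**
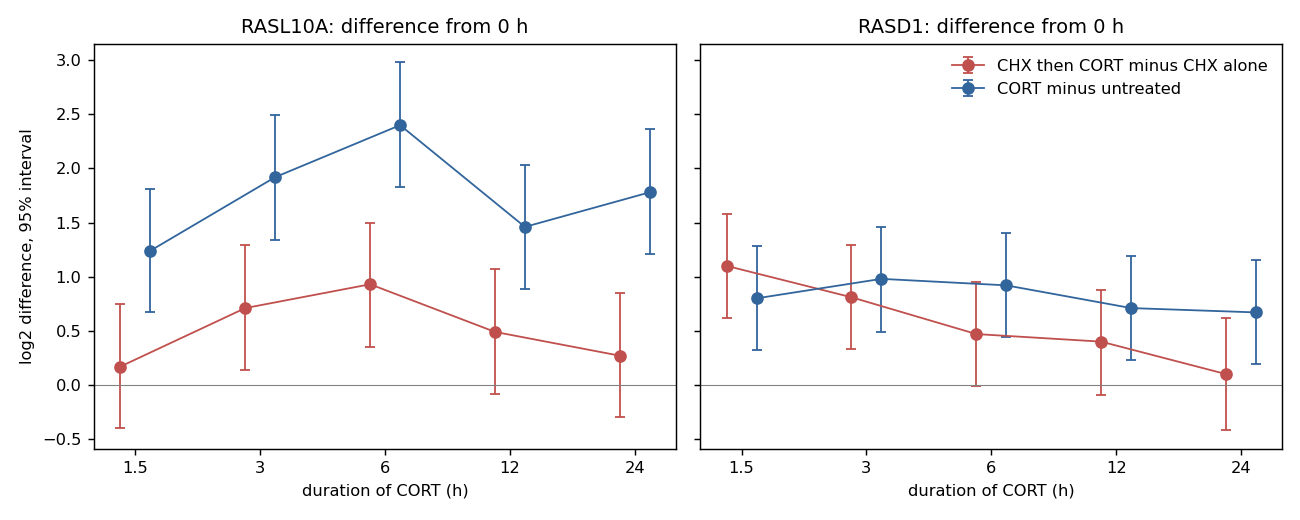
Fitted log2 difference from the 0 h group of the same arm, by hours of CORT, for RASL10A (left) and RASD1 (right), with CHX then CORT minus CHX alone in red and CORT minus untreated in blue. Error bars are 95% intervals from the fit over all 48 arrays. For RASL10A the red line runs below the blue one throughout and both are highest at 6 h, at 0.93 after CHX and 2.40 without it. For RASD1 the red line starts at 1.10 at 1.5 h and ends at 0.10 at 24 h, and its intervals overlap the blue ones at every duration.

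Replicate 3 of CHX alone stood low for both genes and enters each response after CHX. The same sample was also the lowest of its group for FKBP5, at -1.74, and for PDK4, at -0.80, a mitochondrial kinase and glucocorticoid target, although over all features it deviated from its group no more than most arrays (rank 33 of 48). Without it, the RASL10A differences from CHX alone were -0.20, 0.33, 0.55, 0.12 and -0.10 from 1.5 to 24 h. The RASL10A interval was -0.21 to 0.88 at 3 h and 0.01 to 1.09 at 6 h. The RASD1 differences were 0.80, 0.51, 0.17, 0.10 and -0.20, with intervals of 0.34 to 1.26 at 1.5 h and 0.05 to 0.97 at 3 h. RASD1 thus stood above CHX alone at 1.5 and 3 h with or without that sample. The differences of RASL10A at 1.5 and 24 h and of RASD1 at 24 h changed sign. Without replicate 3 of every group, the RASD1 difference at 3 h was 0.43 (0 to 0.85) and the RASL10A difference at 6 h was 0.43 (-0.17 to 1.04). Replicate 1 of CHX alone, at -0.06, was the highest of its group for RASL10A. The replicate 1 samples with CORT after CHX differed from it by -0.60, -0.44, -0.43, -0.56 and -0.59. With 1 sample or 1 replicate number left out, the RASL10A difference ran from 0.33 to 1.09 at 3 h, 0.43 to 1.38 at 6 h and 0.12 to 0.85 at 12 h.

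Set against each other, the response of RASL10A after CHX was below that without CHX at each duration, by -1.07 at 1.5 h (95% interval -1.88 to -0.25), -1.21 at 3 h (-2.02 to -0.39), -1.48 at 6 h (-2.29 to -0.66), -0.97 at 12 h (-1.78 to -0.15) and -1.51 at 24 h (-2.32 to -0.70). Without replicate 3 of CHX alone these values lay between -1.89 and -1.34. For RASD1 the same quantity was 0.30 at 1.5 h (-0.38 to 0.98), -0.17 at 3 h (-0.85 to 0.51), -0.46 at 6 h (-1.14 to 0.22), -0.32 at 12 h (-1.0 to 0.36) and -0.57 at 24 h (-1.28 to 0.13). These intervals are wide and do not show that RASD1 responded alike in both arms. Without replicate 3 of CHX alone the RASD1 values were -0.75 at 6 h (-1.38 to -0.13) and -0.87 at 24 h (-1.52 to -0.23). At 1.5 h the value was 0 (-0.63 to 0.62), at 3 h -0.47 (-1.09 to 0.16) and at 12 h -0.62 (-1.24 to 0.01). Over all features, this difference of responses passed limma's test for 0% at 1.5, 3, 12 and 24 h and for 0.00893% at 6 h, with 161 to 751 features at an unadjusted p under 0.05.

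Samples of equal CORT duration were then compared with and without CHX, a difference that also holds the 1.5 h of pretreatment. In cells without CORT, RASL10A differed between CHX alone and untreated by 0.21 (95% interval -0.36 to 0.79) and RASD1 by -0.17 (-0.66 to 0.31), both groups overlapping. Without replicate 3 of CHX alone the RASL10A difference was 0.59 (0.05 to 1.13) and that of RASD1 0.12. Once CORT was present, RASL10A was lower with CHX at each duration, with differences of -0.85 at 1.5 h, -0.99 at 3 h, -1.26 at 6 h, -0.75 at 12 h and -1.30 at 24 h. The widest of these gaps, at 24 h, was 2.45-fold. Groups with and without CHX did not overlap at 1.5, 3, 6 and 24 h, as was the case for 3.39% to 10.6% of all features, and overlapped at 12 h.

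For RASD1 the gap was near 0 at 1.5 h of CORT and widest at 24 h. With CHX it was 0.12 above the CORT samples at 1.5 h (95% interval -0.36 to 0.60) and differed by -0.34 at 3 h (-0.82 to 0.14), -0.63 at 6 h (-1.11 to -0.15), -0.49 at 12 h (-0.97 to -0.01) and -0.75 at 24 h (-1.27 to -0.23). Its groups with and without CHX overlapped at each duration other than 24 h. There the 3 samples with CHX, at -0.45 to -0.75, lay under the lowest sample without it, at -0.10, as 10.4% of all features also failed to overlap at 24 h. Limma called 0.0179% of features for CHX alone against untreated, then 0.393%, 0.161%, 3.92%, 1.41% and 4.98% for CHX at 1.5, 3, 6, 12 and 24 h of CORT.

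**Figure D3:**
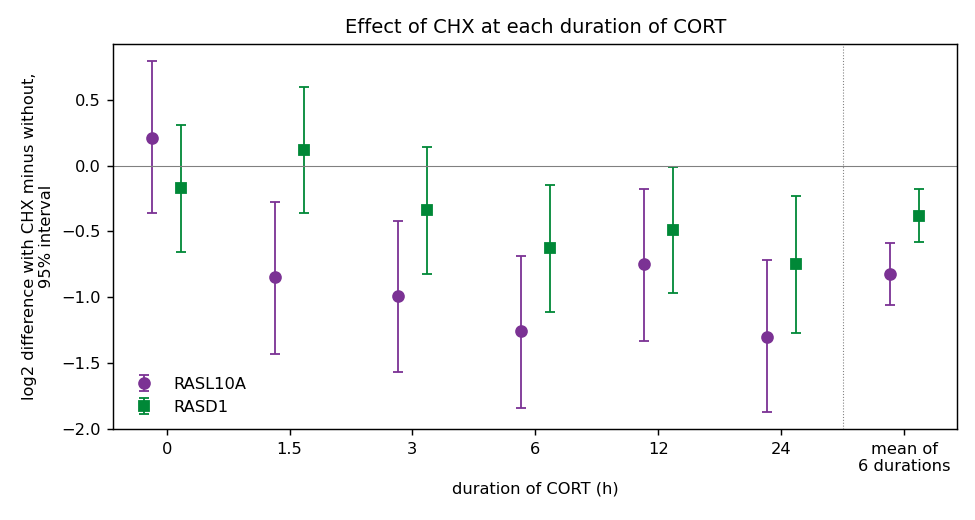
Log2 difference with CHX minus without CHX at each CORT duration, and its mean over the 6 durations at the far right, for RASL10A (purple circles) and RASD1 (green squares). Error bars are 95% intervals. RASL10A lies between -1.30 and -0.75 once CORT is present, while RASD1 runs down to -0.75 at 24 h.

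Averaged over the 6 durations, both genes stood lower with CHX. These means use the same groups that were in view when the genes were chosen, so they too are descriptions. RASL10A averaged -0.44 over the 6 CHX groups and 0.39 over the 6 groups without CHX, a difference of -0.82 (SE 0.12, 95% interval -1.06 to -0.59, 1.77-fold lower). It was lower with CHX for all 4 replicate numbers, by -0.51, -0.93, -1.17 and -0.69. RASD1 averaged -0.17 with CHX and 0.21 without, a difference of -0.38 (SE 0.10, 95% interval -0.58 to -0.18, 1.3-fold lower). For the 4 numbers this was -0.36, -0.23, -0.68 and -0.19. For number 3 the CHX mean lacks the 24 h group, where RASD1 had no value, while the mean without CHX includes 24 h. Over all features limma called 20.1% in this comparison, 1113 higher and 1134 lower. RASL10A ranked 30 from the bottom of 11197 and RASD1 368. Without replicate 3 of every group, the values were -0.71 for RASL10A and -0.26 for RASD1.

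Of 34 measured markers of other cell types, limma called 4 in the mean CHX effect, beside 20.1% of all features called. The part of these markers in the results was not tested. Over the 10 measured of 12 neural markers, the mean level ran from -0.32 to 0.01 in the CHX groups and from -0.03 to 0.06 in the groups without CHX. In the mean CHX effect 6 of these 10 lay above 0 and their median was 0.02, against 0.019 over all features. Limma called 3 of the 10, all lower, beside 20.1% of all features called: TUBB3, a neuronal tubulin (-1.16), NEFL, a neurofilament subunit (-0.45), and the glial filament gene GFAP (-0.28). Over 10 of 12 fibroblast markers the mean level ran from -0.30 to 0.07 with CHX and from 0.02 to 0.17 without. In the mean CHX effect 2 of these 10 lay above 0 and their median was -0.10, against 0.019 over all features. Limma called 1 of the 10, the vimentin gene VIM, which fell (-0.19, adjusted p = 0.0382). That call was lost in 21 of 48 fits that left out 1 sample (adjusted p from 0.0517 to 0.066). Measured were also 4 red cell markers (15 listed), 6 endothelial (10 listed) and 4 immune (10 listed), and 0 of these passed limma's test for the mean CHX effect, with 4 at an unadjusted p under 0.05. In the CORT comparisons without CHX, limma called 0 of the 34 marker genes at any duration, beside 0% to 0.0982% of all features. There 5 of 170 tests had an unadjusted p under 0.05. After CHX it called 1 of the 34, the fibronectin gene FN1, beside 0.0179% to 2.3% of all features at a duration. FN1 was lower than in CHX alone at 24 h (-0.84, adjusted p = 0.00991), where 2.3% of all features were called. Of the 170 tests after CHX, 14 had an unadjusted p under 0.05. The FN1 call was lost without CHX and CORT 24 h replicate 4 (adjusted p = 0.0641).

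**Figure D4:**
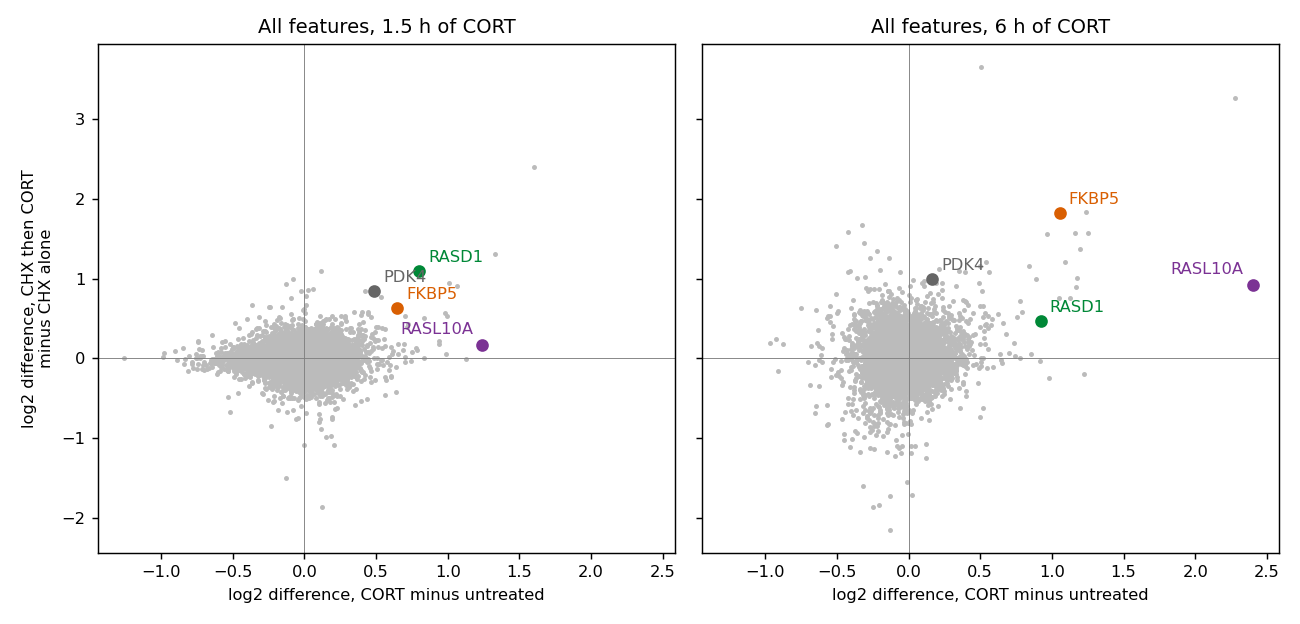
Each of 11197 features by its log2 difference CORT minus untreated (horizontal) and CHX then CORT minus CHX alone (vertical), at 1.5 h (left) and 6 h (right) of CORT. Grey points are features, and the 4 coloured points are RASL10A, RASD1, FKBP5 and PDK4. At 6 h RASL10A stands farthest right at 2.40 and at 0.93 on the vertical axis, whereas FKBP5 stands at 1.05 and 1.82.

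Across the 12 group means, RASL10A ran from CORT 6 h at 1.32 ± 0.55 down to untreated at -1.08 ± 0.29 (SD, n = 4 each). The 5 CORT groups without CHX came first, then the 5 groups with CHX and CORT, then CHX alone at -0.87 ± 0.81. RASD1 ran from CORT 3 h at 0.51 ± 0.41 to CHX alone at -0.65 ± 0.60. CORT at 1.5 h after CHX stood second, at 0.45 ± 0.56, among the CORT groups without CHX, while CORT at 24 h after CHX, at -0.55 ± 0.17 (n = 3), came below untreated at -0.47 ± 0.13. For both genes 0 of 11 neighbours in this order differed by more than the larger of their SDs, so the steps between neighbours are not resolved.

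The 2 genes resembled each other over these group means (Pearson r = 0.72), which share arrays, the pool and the choice of the genes. Among 5633 other named genes, RASL10A ranked 4 in likeness to RASD1, and RASD1 ranked 25 in likeness to RASL10A. FKBP5 followed neither closely, with r = 0.36 to RASL10A and 0.16 to RASD1. Its group means went up to 0.82 ± 0.15 at 6 h of CORT after CHX, against -1.0 ± 0.58 in CHX alone, and to 0.06 ± 0.11 at 6 h of CORT without CHX, against -1.0 ± 0.23 in untreated samples (SD, n = 4 each). PDK4 had r = -0.13 and 0.14.

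The 5 named genes nearest to RASL10A were CNR1, the type 1 cannabinoid receptor (r = 0.87), ENPP2, which encodes autotaxin, a maker of lysophosphatidic acid (0.83), CCDC80, a secreted matrix protein (0.81), ERMP1, a peptidase of the endoplasmic reticulum (0.79), and NIPA2, a magnesium transporter (0.78). They moved over smaller ranges. CCDC80 averaged 0.87 ± 0.28 at 6 h of CORT and -0.17 ± 0.04 untreated, CNR1 0.25 ± 0.16 and -0.16 ± 0.10, and ENPP2 0.97 ± 0.71 and -0.20 ± 0.48 (SD, n = 4 each). Nearest to RASD1 stood DYNC1I2, a dynein chain (0.74), LOC769329 (0.72), ARHGAP40 (0.72), RASL10A (0.72) and INTS6, a subunit of the Integrator complex (0.72). Over the 48 arrays these 5 genes had, in the same order, r = 0.32, 0.35, 0.44, 0.62 and 0.08 with RASD1. Of these, ARHGAP40 averaged 0.19 ± 0.27 at 3 h of CORT and -0.26 ± 0.04 untreated.

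Few features of any kind were called after CORT without CHX, between 0% and 0.0982% at a duration. Of 34 other GTPases of the Ras subfamily listed, 13 were measured, and 0 of 13 passed limma's test in either direction at any duration, with 1 of 65 tests at an unadjusted p under 0.05. Their median difference from untreated lay between -0.03 and 0.06, with the median of all features between -0.001 and 0.017. RASD2, the closest relative of RASD1, differed by between -0.06 and 0.07 over the 5 durations. At 6 h of CORT the values for the classical Ras genes were -0.05 for HRAS and -0.04 for NRAS, and that for RAP1A, a GTPase of cell adhesion, was 0.33.

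After CHX, 2 Ras subfamily genes changed at 1 duration each, where limma called 1.13% of all features at 6 h and 2.3% at 24 h. RAP1A rose at 6 h (0.90, SE 0.20, adjusted p = 0.0119), and GEM, a GTPase that restrains calcium channels, fell at 24 h (-0.85, SE 0.20, adjusted p = 0.0143). Each call was lost without 3 of 8 samples taken out in turn: CHX alone replicates 1 and 3 or CHX and CORT 6 h replicate 3 for RAP1A (adjusted p = 0.0618, 0.1 and 0.0805), and CHX alone replicate 3 or CHX and CORT 24 h replicates 2 and 4 for GEM (0.163, 0.0572 and 0.0991).

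**Figure D5:**
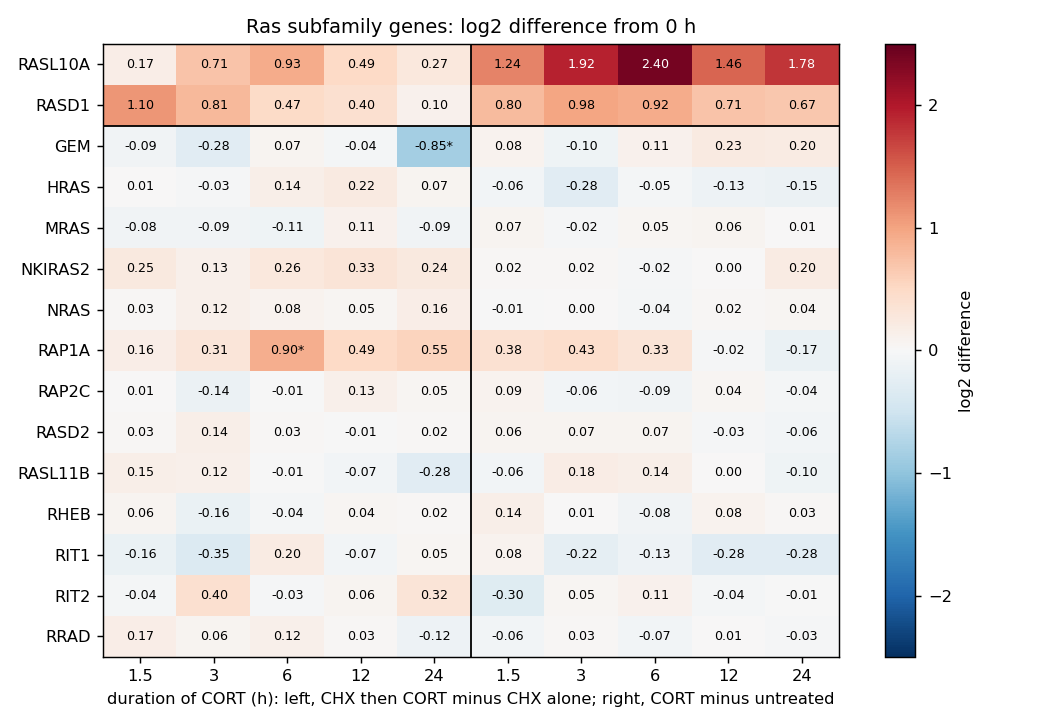
Log2 difference from the 0 h group of the same arm for RASL10A, RASD1 and the 13 other measured Ras subfamily genes, by hours of CORT, with CHX then CORT minus CHX alone on the left and CORT minus untreated on the right. Asterisks mark limma adjusted p under 0.05, which is not shown for the top 2 genes. Among the other genes only RAP1A at 6 h (0.90) and GEM at 24 h (-0.85), both after CHX, carry one.

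Genes around the Ras cycle were measured in part. Among regulators, which load or unload GTP, 10 of 25 were measured, among effectors and downstream factors 12 of 26, and among G-protein partners, which include the Gi subunits and the adaptor NOS1AP, 16 of 26. Limma called 0 of these 38 genes at any duration without CHX, beside 0% to 0.0982% of all features, with 9 of 190 tests at an unadjusted p under 0.05. At 6 h of CORT the difference of NOS1AP was -0.28, that of GNAI1, a Gi alpha subunit, 0.50 (SE 0.31), and that of KSR1, a scaffold of the Raf and MEK kinases, 0.29 (SE 0.10). After CHX, RGL1, an exchange factor for Ral, fell at 24 h (-0.44, adjusted p = 0.0177) and RGS4, which speeds GTP hydrolysis by Gi and Gq subunits, rose at 6 h (0.95, adjusted p = 0.0259), beside 2.3% and 1.13% of all features called. The RGL1 call was lost without CHX alone replicate 3 or CHX and CORT 24 h replicate 4 (adjusted p = 0.102 and 0.122). That of RGS4 was lost without 5 of 8 samples, CHX alone replicates 1, 3 and 4 and CHX and CORT 6 h replicates 1 and 3 (adjusted p from 0.0635 to 0.207).

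In the mean effect of CHX, 4 of the 13 other Ras subfamily genes rose and 0 fell, beside 20.1% of all features called in either direction, and their median was 0.07 against 0.019 over all features. The 4 were RRAD, a relative of GEM (0.37, adjusted p = 1.77e-05), RIT1 (0.33, adjusted p = 0.00309), GEM (0.24, adjusted p = 0.0378) and RHEB, which activates the kinase complex mTORC1 (0.12, adjusted p = 0.0226). The GEM call was lost in 18 of 48 fits that left out 1 sample (adjusted p from 0.0503 to 0.0774). Of the 10 regulators limma called 0, with 1 at an unadjusted p under 0.05. Of the 12 effectors, ETS1, a transcription factor downstream of ERK kinases, rose (0.39, adjusted p = 4.51e-06). Of the 16 G-protein partners, RGS4 rose (0.81, adjusted p = 3.24e-08), and the G gamma genes GNG10 (-0.27, adjusted p = 0.00134) and GNG2 (-0.17, adjusted p = 0.00757) fell.

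Other glucocorticoid targets were called more often after CHX, as all features were, with 0.0179% to 2.3% of features called at a duration after CHX and 0% to 0.0982% without. This list was chosen with earlier results of these data known. The sign of the ratio was read from FKBP5, so the direction of the FKBP5 calls is no independent result. Of 9 measured of 20 listed, FKBP5 alone passed without CHX, with a difference of 1.01 at 3 h (adjusted p = 0.0472) and of 1.05 at 6 h (0.00968). Its 3 h call was lost without any 1 of 7 of the 8 samples and held without untreated replicate 3, and its 6 h call was lost without untreated replicate 1 or 2 or CORT 6 h replicate 3 (adjusted p from 0.0774 to 0.094). After CHX, 4 genes, FKBP5, PDK4, BCL6 and NFKBIA, made 11 calls over the 5 durations, all higher. Their differences at 6 h of CORT after CHX were 1.82 for FKBP5, 0.99 for PDK4, 0.90 for BCL6, a transcriptional repressor, and 1.26 for NFKBIA, the inhibitor of NF-kB. At 6 h the BCL6 call was lost without CHX and CORT 6 h replicate 3 (adjusted p = 0.05), and that of NFKBIA without the same sample or CHX alone replicate 3 (0.0983 and 0.116). At other durations the PDK4 call at 1.5 h was lost without 6 of 8 samples, CHX alone replicates 1, 3 and 4 and CHX and CORT 1.5 h replicates 2, 3 and 4 (adjusted p from 0.0671 to 0.424). The FKBP5 call at 3 h was lost without CHX alone replicate 1 or 3 or CHX and CORT 3 h replicate 3 (0.108, 0.278 and 0.337), and the PDK4 call at 12 h without CHX alone replicate 3 (0.0596). The BCL6 call at 12 h was lost without replicate 1 or 3 of CHX alone or of CHX and CORT 12 h (0.0578 to 0.201). In the mean CHX effect 5 of the 9 rose and 0 fell, beside 20.1% of all features called, with NFKBIA at 1.48 and FKBP5 at 0.34, where RASL10A stood at -0.82 and RASD1 at -0.38. Hormone and pituitary factor genes, 11 of 19 measured, had 0 limma calls after CORT in either arm, with 3 of 55 tests in each at an unadjusted p under 0.05. TSHB, the thyrotropin beta subunit (-0.92, adjusted p = 3.5e-07), and POU1F1, the pituitary transcription factor (-0.22, adjusted p = 0.00715), fell in the mean effect of CHX.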

How the data were processed

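The authors deposited log2 ratios, sample (Cy3) over a Cy5 pool of all 48 samples, for 19200 probes. The log base was read from the values and the sign from FKBP5. Background correction, normalisation and software are not given in the sources used here. Array medians lay between -0.038 and 0.048 and SDs between 0.301 and 0.324, so the values were scaled before deposit, which removes differences in total RNA. No intensities were used here, so signal over background is unknown and the number of arrays limits the precision. The labels' slide count is below the number of samples, which was not resolved. All 48 columns were used.

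Gene symbols came from the platform annotation: 10601 probes had 1 symbol, 0 several and 8599 none, and 10455 matched the RefSeq gene table of assembly GRCg7b. No coordinates or sequences are given. Probes of 1 symbol with a value on at least 24 arrays were averaged, a rule set after seeing that the second RASD1 probe held 2 values, both 0. A feature needed 3 of 4 arrays in each group, which left 11197 of 12511 features with 0.86% of values missing. Arrays shared 0% of values.

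All arrays entered 1 group-means model (lmFit and eBayes, limma 3.58.1, R 4.3.3), two-sided, with Benjamini-Hochberg adjustment over all features and a threshold of 0.05. Intervals are 95% intervals from the fit. The steps were tested on simulated data. The text names RASL10A and RASD1, the 5 named genes nearest to each by Pearson r over 12 group means, the list genes called in a comparison or otherwise up to 4 of a list with their values, and FKBP5 and PDK4. The members and the gene lists were chosen with earlier results of these data known, so the planned test of the members' mean CHX effect is given as a value without a p-value. Labels give each group the numbers 1 to 4 without saying what a number shares, and the main fit has no block. Samples of equal number often deviated together, with values given below. A block on the number was fitted as an alternative. Alternatives were a replicate block, median centring, quantile normalisation, array weights, zeros as missing, no filter, the main axis of spread as a covariate, fits on fewer groups, all probes averaged and each sample left out.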

Additional observations from a re-analysis of the deposited data

Results flagged for a closer look

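In 2 of 23 groups of 4 samples tested, 1 sample stood apart from the other 3 by Dixon's criterion, and chance alone flags about 1 group in 20. Both concern RASD1. Replicate 3 of CORT 1.5 h, at 0.63, lay above the others, which read 0.26, 0.21 and 0.23. Replicate 3 of CHX alone, at -1.54, lay below the others, at -0.38, -0.39 and -0.28. The CHX sample was also the lowest of its group for RASL10A (-1.99), FKBP5 (-1.74) and PDK4 (-0.80), and its deviation over all features ranked 33 of 48 arrays. What set it apart was not tested.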

How the results depend on the processing

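Of 1104 alternative values for the 2 genes and the counts of list gene calls, 1083 counted as unchanged. For the mean CHX effect this meant the same direction and side of the threshold, and 0 of these values reversed. The RASD1 value without replicate 3 of every group, -0.26, fell on the other side of the threshold. Here the threshold only sorts the alternatives and is no test of the 2 genes. For counts it meant a small relative change. For other differences it meant moving by less than the spread between replicates, which allows a change of sign. In the leave-outs the RASL10A difference from CHX alone at 1.5 h of CORT ran from -0.20 to 0.44. That of RASD1 at 24 h ran from -0.20 to 0.28. The RASL10A difference from untreated stayed between 2.22 and 2.66 at 6 h of CORT. With 1 sample or 1 replicate number left out, these ranges went past the spread between replicates: RASL10A after CHX at 6 h 0.43 to 1.38, RASD1 after CHX 0.61 to 1.35 at 1.5 h and 0.43 to 0.96 at 3 h, RASL10A in CHX alone against untreated -0.12 to 0.70, and the response after CHX minus that without, -0.10 to 0.53 for RASD1 at 1.5 h and, for RASL10A, -1.76 to -0.82 at 3 h, -1.44 to -0.70 at 12 h and -2.01 to -1.24 at 24 h. The mean CHX effect ran from -0.93 to -0.71 for RASL10A and from -0.44 to -0.26 for RASD1, whose value nearest 0 came without replicate 3 of every group. The cause was not tested. The calls of list genes after CORT, counted by gene and comparison, were 15 higher and 2 lower over the 10 comparisons. That was 2.39% of these tests, against 0.476% over all features. The counts became 27 and 11 with array weights and 30 and 7 with the main axis of spread as a covariate. They ran from 6 to 14 higher and 0 to 2 lower with replicate numbers left out. All probes averaged and the axis covariate for the list counts, the leave-outs of those counts and of single list calls and the rule on probes were added after seeing the data. Probes could not be taken singly, since RASL10A has 1 and the second RASD1 probe 2 values. The 5 genes nearest to RASL10A shared 2 with those found by Spearman's rank correlation and 2 with those over 48 arrays. For RASD1 both counts were 1.

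Samples of equal number correlated in their deviations between -0.55 and 0.88 (median 0.44), 194 of 264 pairs over 0.1, against -0.86 to 0.77 (median -0.10) and 235 of 792 for unlike numbers and groups. With the replicate block the mean CHX effect was -0.82 for RASL10A and -0.38 for RASD1, as without it. Each group holds every number once, so the block could not move the RASL10A value. It could move that of RASD1 only through the missing sample, so this agreement says nothing on robustness. The block turned 15 higher and 2 lower list calls into 18 and 8.

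With 4 arrays a group, single differences carried SEs of 0.28 for RASL10A and 0.24 for RASD1 (0.26 with 3 samples). Differences whose 95% interval included 0 were therefore not resolved from 0. An interval without 0 shows precision only and is no test, since both genes were chosen on these values. Without intensities, low signal could not be told from a true low level.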

Other observations

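Some probes without a gene symbol followed these genes more closely than any named gene. Over the 12 group means, probe_21.3.9 had r = 0.88 with RASL10A and probe_29.7.5 had r = 0.93 with RASD1. The first, probe_21.3.9, averaged 0.66 ± 0.26 at 6 h of CORT and -0.20 ± 0.17 untreated, and stood at -0.15 ± 0.17 at 6 h of CORT after CHX, against -0.21 ± 0.16 in CHX alone (SD, n = 4 each). The second, probe_29.7.5, averaged 0.39 ± 0.31 at 1.5 h of CORT and -0.44 ± 0.38 untreated. After CHX it averaged 0.13 ± 0.61 at 1.5 h of CORT and -0.37 ± 0.80 in CHX alone. These 2 were picked after their values were seen.

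A further probe, probe_13.4.10, also without a symbol, lies 3 columns from the RASL10A spot in the same printed row. It averaged 0.25 ± 0.27 at 6 h of CORT and -2.03 ± 0.43 untreated, and 1.12 ± 0.31 at 6 h of CORT after CHX, against -2.15 ± 1.00 in CHX alone, so it was higher after CORT with CHX than without, unlike RASL10A. The 4 spots that touch the RASL10A spot differed from untreated by -0.13, 0.62, 0.04 and -0.05 at 6 h of CORT, where RASL10A differed by 2.40. The 4 around the RASD1 spot differed by 0.18, 0.05, -0.69 and -0.06, where RASD1 differed by 0.92.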
